A study of Mus musculus with 6 samples.

Results

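Transcripts of 10 genes of the NF-kB pathway were examined in meningeal lymphatic endothelial cells of young and old mice. The genes were taken by name from the pathway, with earlier results of these data known. They are the 5 subunits Nfkb1, Nfkb2, Rel, Rela and Relb, the regulators Nfkbia, Tnfaip3 and Birc3, and the receptors Tnfrsf1a and Ltbr. All 10 had a row in the deposited table of 22964 genes, and all 10 passed the filter on low counts, which left 15394 genes. Lymphatic endothelial cells line the vessels that drain fluid and immune cells out of the meninges, the membranes that wrap the brain. They were sorted from untreated wild-type male C57BL/6J mice as cells negative for CD45, a leukocyte protein, and positive for CD31 and podoplanin. The young group had 3 samples from mice of 2 to 3 months, and the old group had 3 samples from mice of 20 to 24 months. The mice came from a commercial breeder or an ageing colony, and the source of each sample is not given. Whether a sample was 1 animal or a pool is not given either. The tests therefore cover the sample-to-sample spread in this set, part of which may be technical.

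NF-kB is a family of dimeric transcription factors built from Rela, Rel, Relb and the products of Nfkb1 and Nfkb2. In resting cells the dimers are held in the cytoplasm by IkB proteins such as the product of Nfkbia. Signals from tumour necrosis factor receptors lead to IkB degradation in the canonical branch, and signals from the lymphotoxin beta receptor lead to processing of the Nfkb2 product and release of Relb in the noncanonical branch. The pathway induces its own inhibitors, among them Nfkbia and Tnfaip3, and in endothelium it drives adhesion molecules and chemokines that recruit leukocytes.

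The kappa B consensus motif, the 10-base site that NF-kB dimers bind, was searched on both strands of RefSeq promoter windows (GRCm38.p6) that run from 250 bases before to 50 bases after a transcription start. Windows were matched by symbol for 8 of the 10 genes, leaving Nfkb1 and Relb without one. Nfkb2, Rel, Nfkbia and Tnfaip3 held a match, and Rela, Birc3, Tnfrsf1a and Ltbr held none. Of all 32851 windows, 4.51% held a match. Counted per gene, as for the members, a match stood in 5.14% of 27025 genes with a window, 6.14% of the tested ones, and 29.7% of the 74 genes of other pathway lists. The 150 bases before 1 start are shown for the 4 genes with a match, because the motif was found in their searched windows. Capitals mark the matched bases, which overlap on the 2 strands in Nfkb2 and Rel. Nfkb2 had further windows at other starts, also with matches, and Tnfaip3 had another window with none.
Nfkb2, chr19:46304587-46304736, plus strand: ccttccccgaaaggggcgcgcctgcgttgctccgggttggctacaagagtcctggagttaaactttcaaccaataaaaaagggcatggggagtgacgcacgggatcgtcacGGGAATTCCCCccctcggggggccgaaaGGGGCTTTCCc
Rel, chr11:23770970-23771119, minus strand: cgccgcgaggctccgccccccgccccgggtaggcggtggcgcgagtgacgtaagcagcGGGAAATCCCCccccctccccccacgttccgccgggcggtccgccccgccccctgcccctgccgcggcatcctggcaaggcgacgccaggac
Nfkbia, chr12:55492648-55492797, minus strand: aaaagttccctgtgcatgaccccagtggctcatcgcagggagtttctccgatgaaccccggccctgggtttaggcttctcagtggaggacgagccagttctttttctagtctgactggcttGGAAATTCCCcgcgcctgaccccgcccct
Tnfaip3, chr10:19015411-19015560, minus strand: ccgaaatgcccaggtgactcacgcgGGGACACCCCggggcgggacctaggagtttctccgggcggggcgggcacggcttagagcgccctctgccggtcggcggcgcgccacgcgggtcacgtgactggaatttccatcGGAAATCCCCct

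The sequencing depth was 14285794 to 21043945 estimated counts per sample, and a single member had between 14 counts (Tnfaip3 in young sample 1) and 4357 counts (Rel in young sample 3). Levels are given as CPM, counts scaled to TMM-adjusted library sizes, unless said otherwise. The markers of the sorted cells were present in every sample: Prox1, the lymphatic fate factor, had 877 to 1410 CPM, the hyaluronan receptor Lyve1 1016 to 1593 CPM, Pecam1, which encodes CD31, 320 to 733 CPM, and Pdpn, which encodes podoplanin, 57.8 to 142 CPM. Summed markers of lymphatic endothelium were 10781 to 13366 CPM in the 3 young and 17079 to 21043 CPM in the 3 old samples. Summed fibroblast markers were 5738 to 8753 and 2929 to 4856 CPM, and summed blood endothelial markers 724 to 877 and 1329 to 1774 CPM. These 3 lists did not overlap between the ages. Their part in the values of the members and of the other pathway genes below was not tested. In bulk samples, fewer cells of a type and less RNA per cell cannot be told apart.

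No member passed the test for a difference between the ages. By edgeR's quasi-likelihood test with Benjamini-Hochberg adjustment over all 15394 genes, 0 of the 10 members passed an adjusted p of 0.05, as did 0.00% of all genes. At an unadjusted p under 0.05, 0 of the 10 passed, where 5.56% of all genes did. Neither DESeq2 nor limma-voom passed a member at either threshold. The log2 fold changes of old against young were positive for 5 members and negative for 5, with a median of 0.15 against 0.02 for all genes tested. Ltbr was the 1 member whose groups did not overlap, where 12.0% of all genes had groups that did not overlap.

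**Figure D1:**
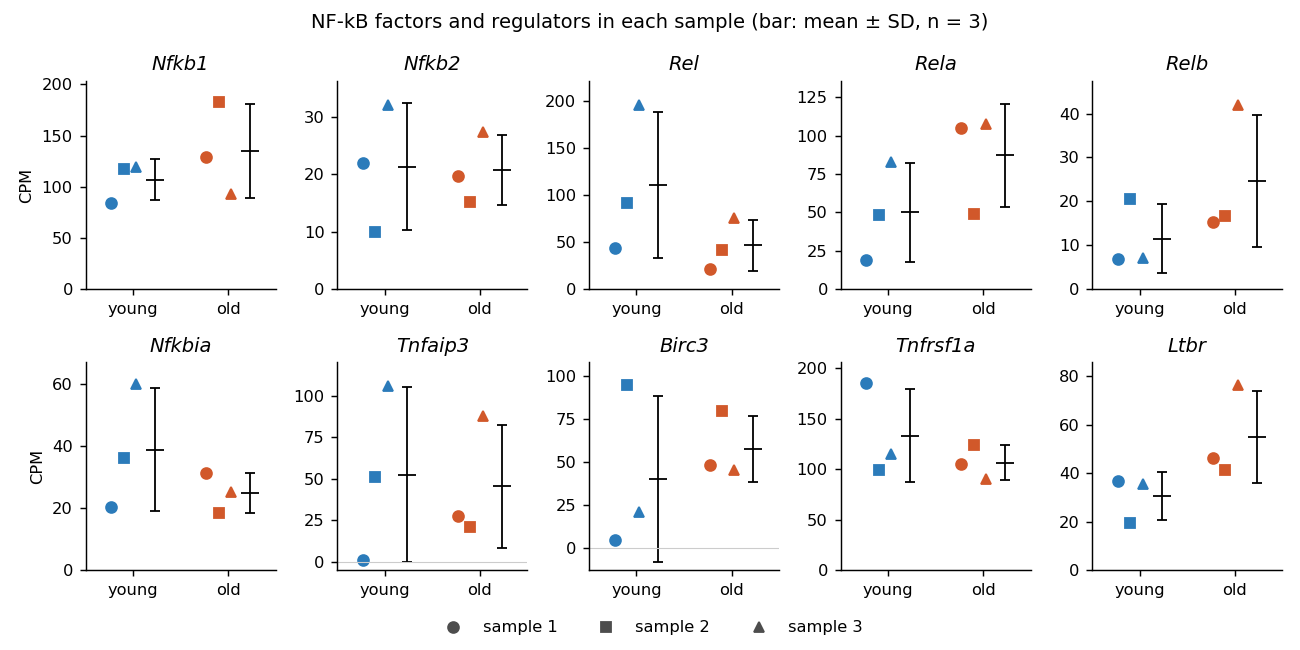
Level of each of the 10 genes in CPM (vertical axes, linear) in the 3 young samples (blue) and 3 old samples (orange), with marker shape for sample number and black bars for mean ± SD (n = 3). The groups overlap for every gene except Ltbr, whose lowest old sample (41.5 CPM) lies above the highest young sample (36.9 CPM).

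Among the subunits, Rel had a negative log2 fold change, Nfkb2 one near 0, and Rela, Relb and Nfkb1 positive ones. Rel (ENSMUSG00000020275; chromosome 11, 23736847 to 23770970, minus strand, in GRCm38) encodes c-Rel, a subunit best known from lymphocytes and myeloid cells. It had 43.4, 91.8 and 196 CPM in young samples 1, 2 and 3, against 21.8, 41.4 and 76.0 CPM in old samples 1, 2 and 3. The group means were 110.5 ± 78.0 and 46.4 ± 27.4 CPM (SD, n = 3 each), and 2 of the 3 old samples lay below every young one. Rel had a log2 fold change of −1.25 (SE 0.64, 95% interval −2.71 to 0.21; edgeR adjusted p = 0.891). Leaving out young sample 3, the highest, brought it to −0.55, and leaving out old sample 3 to −1.81.

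Rela (ENSMUSG00000024927; chromosome 19, 5637483 to 5648130, plus strand) encodes the main activating subunit of canonical dimers. It had 18.7, 48.3 and 82.8 CPM in the 3 young and 105, 48.7 and 108 CPM in the 3 old samples. Old samples 1 and 3 were above all young samples, and old sample 2 lay within the young range. Rela had a log2 fold change of 0.80 (SE 0.59, 95% interval −0.54 to 2.15; edgeR adjusted p = 0.932). Without young sample 3 it was 1.37 and without young sample 1 it was 0.41.

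Relb (ENSMUSG00000002983; chromosome 7, 19606217 to 19629438, minus strand) is the activating subunit of the noncanonical branch. Its levels were 6.76, 20.6 and 7.07 CPM in the 3 young and 15.3, 16.6 and 42.0 CPM in the 3 old samples. Young sample 2 was above 2 of the 3 old samples, so the groups overlapped. Relb had a log2 fold change of 1.101 (SE 0.84, 95% interval −0.79 to 3.00; edgeR adjusted p = 0.932). Without old sample 3 it was 0.47 and without young sample 2 it was 1.83.

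Nfkb1 (ENSMUSG00000028163; chromosome 3, 135584655 to 135691547, minus strand), which encodes the precursor of the DNA-binding partner of Rela, varied least among the subunits. It had 83.8, 118 and 119 CPM in the 3 young and 129.5, 183 and 92.4 CPM in the 3 old samples. Old sample 3 lay within the young range. Nfkb1 had a log2 fold change of 0.34 (SE 0.35, 95% interval −0.46 to 1.14; edgeR adjusted p = 0.952), and the interval as a fold ran from 0.725 to 2.20. Without old sample 2 it was 0.05 on the log2 scale and without old sample 3 it was 0.55.

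Nfkb2 (ENSMUSG00000025225; chromosome 19, 46304320 to 46312385, plus strand) encodes the precursor that is processed to the partner of Relb. It had 22.0, 9.90 and 32.0 CPM in the 3 young and 19.8, 15.2 and 27.3 CPM in the 3 old samples, with every old sample inside the young range. Nfkb2 had a log2 fold change of −0.04 (SE 0.72, 95% interval −1.67 to 1.597; edgeR adjusted p = 1.00). Its exons overlap those of genes on the other strand, among them Psd, over 830 bases, and strandedness is not given, so reads there cannot be assigned with certainty. Psd itself was at 0.931 to 14.9 CPM.

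The make-up of the subunit pool was computed within each sample, where library scaling has no effect. Estimated counts of the 5 subunits were divided by the length of their merged exons and expressed as a share of their sum. Rel made up 22.9%, 27.2% and 36.5% of the pool in young samples 1, 2 and 3 and 5.20%, 12.6% and 14.6% in old samples 1, 2 and 3. Every old sample was below every young one, and the shares of the other subunits overlapped between the ages. No background over all genes was computed for shares. For levels in CPM, 12.0% of all genes had groups that did not overlap. The means were 28.9 ± 6.97% and 10.8 ± 4.94% (SD, n = 3 each), a difference of −18.1 percentage points with p = 0.1 in a two-sided exact permutation test, the smallest p that 3 samples against 3 can give. The difference ran from −21.1 to −14.3 points when single samples were left out, and it was −12.7 points with the longest transcript as the length and −19.5 points with no length correction. Of 19 macrophage markers, 18 also had a negative log2 fold change, and their part in the Rel values was not tested.

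On merged exons Rela took the largest share in every sample but young sample 1, where Nfkb1 did, and its groups overlapped. With the longest transcript as the length, Nfkb1 was above Rela in young samples 1 and 2 (49.7% against 16.9%, and 42.1% against 26.4%) and in old sample 2 (57.6% against 23.4%). The part of Rela on merged exons was 24.0%, 34.8% and 37.5% in the 3 young samples. It was 61.0%, 35.9% and 50.4% in the 3 old samples (exact permutation p = 0.2). Nfkb1 made up 20.9 ± 6.85% and 21.5 ± 11.9%, Nfkb2 11.1 ± 7.16% and 7.91 ± 0.558%, and Relb 7.04 ± 4.603% and 10.7 ± 4.35% (SD, n = 3 each). For these 3 the exact permutation p was 1.0, 0.7 and 0.4. The 5 shares add up to the whole pool in each sample, so they are not independent of one another.

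**Figure D2:**
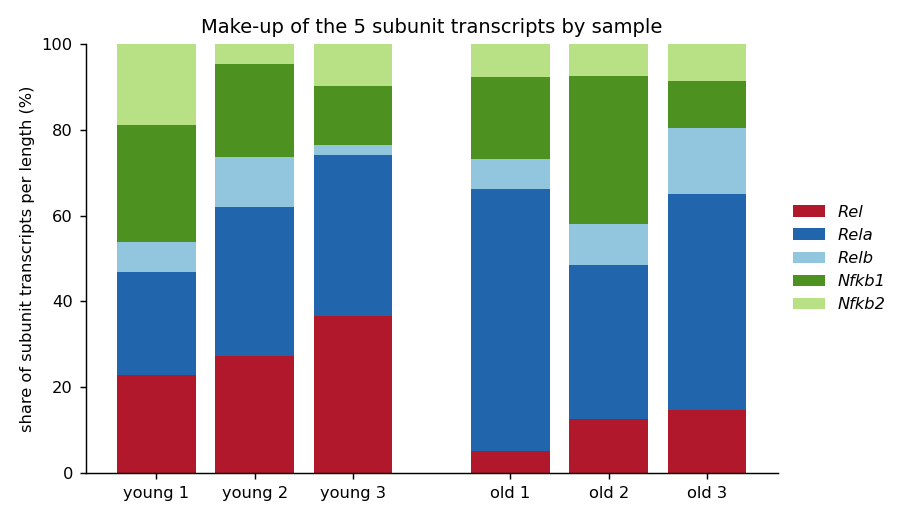
Share of each subunit among the 5 subunit transcripts (vertical axis, percent, estimated counts per length of merged exons) in the 3 young and 3 old samples, 1 bar per sample. The Rel segment at the base is 22.9% to 36.5% in the young samples and 5.20% to 14.6% in the old samples.

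Ratios between single subunits were computed for all 10 pairs, and Rel to Rela and Rel to Relb were lower in every old sample than in any young one. The ratio of Rel to Rela counts was 2.33, 1.90 and 2.37 in young samples 1, 2 and 3 and 0.207, 0.851 and 0.705 in old samples 1, 2 and 3. By counts, Rel was thus above Rela in every young sample and below it in every old one. Per length of merged exons, Rela was above Rel in every sample of both ages, so this change of order holds for counts only. The longer transcript of Rel enters the level of the ratio but not its difference between samples. The ratio of Rel to Relb was 6.42, 4.45 and 27.8 in young and 1.43, 2.49 and 1.81 in old samples. In geometric means the old ratios were 0.228 and 0.201 of the young ones, each with p = 0.1 in a two-sided exact permutation test. Of the 10 pairs of subunits, these 2 did not overlap between the ages, and among all 85471275 pairs of tested genes with a count in every sample 11.4% did not. The 10 pairs share their 5 members, and whether their count exceeds this background was not tested.

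**Figure D3:**
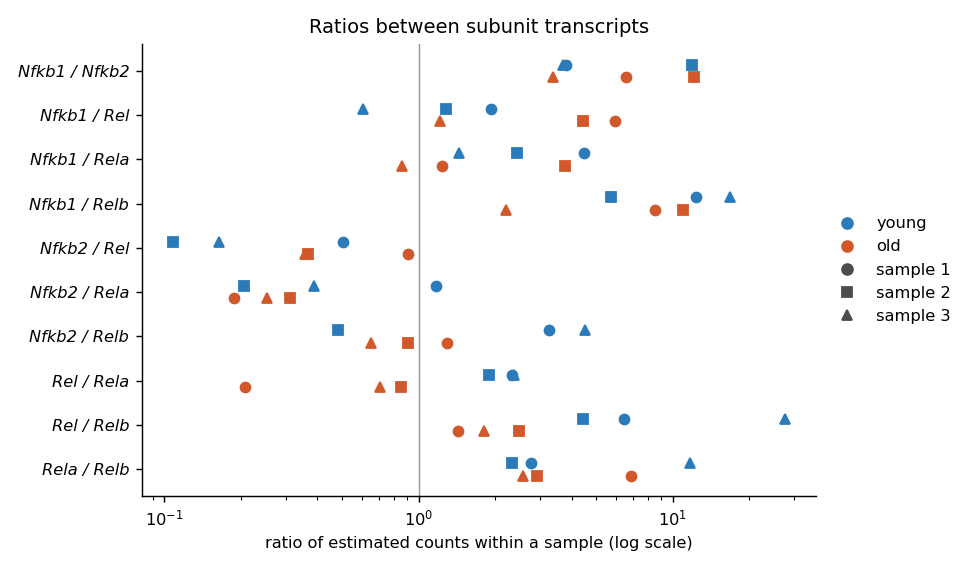
Ratio of estimated counts between the 2 subunits of each of the 10 pairs (horizontal axis, log scale) in the 3 young samples (blue) and 3 old samples (orange), with marker shape for sample number. For Rel to Rela and Rel to Relb all old points lie to the left of all young points, and the other 8 pairs overlap.

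The inhibitor Nfkbia (ENSMUSG00000021025; chromosome 12, 55489410 to 55492647, minus strand) encodes IkB alpha, which holds canonical dimers in the cytoplasm and is itself induced by them. It had 20.4, 36.4 and 60.0 CPM in young samples 1, 2 and 3, against 31.4, 18.5 and 25.2 CPM in old samples 1, 2 and 3. Young samples 2 and 3 were above all old samples, and young sample 1 lay between old samples 2 and 3. Nfkbia had a log2 fold change of −0.64 (SE 0.62, 95% interval −2.04 to 0.76; edgeR adjusted p = 0.948). Without young sample 3 it was −0.19 and without young sample 1 it was −0.95.

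Tnfaip3 (ENSMUSG00000019850; chromosome 10, 19000910 to 19015657, minus strand), a ubiquitin-editing enzyme that shuts off the signal from tumour necrosis factor receptors, had the widest spread of all members. Its levels were 0.869, 50.8 and 106 CPM in the 3 young and 27.8, 20.6 and 87.9 CPM in the 3 old samples, a range of 122-fold. Young sample 1 stood apart at 14 counts. Tnfaip3 had a log2 fold change of −0.21 (SE 1.20, 95% interval −2.93 to 2.51; edgeR adjusted p = 0.998), and its sign depended on the method and on single samples: it was 0.99 by limma-voom, 0.81 without young sample 3 and −1.12 without old sample 3.

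Birc3 (ENSMUSG00000032000; chromosome 9, 7848699 to 7873186, minus strand) encodes a ubiquitin ligase that links tumour necrosis factor receptors to NF-kB and restrains the noncanonical kinase. It had 4.22, 94.7 and 20.9 CPM in the 3 young and 47.9, 79.7 and 45.2 CPM in the 3 old samples. The old samples lay between the lower 2 and the highest of the young samples. Birc3 had a log2 fold change of 0.53 (SE 0.92, 95% interval −1.57 to 2.63; edgeR adjusted p = 0.969), and it was −0.01 without young sample 1 and 2.19 without young sample 2. Its estimates are uncertain, since 11.3% of its distinct stretches of 31 bases also occur in transcripts of other genes, the largest number of them in Gm7019; for each of the other 9 members that share was at most 1.81%.

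The receptors and Nfkb1 had the 3 lowest coefficients of variation among the members. Tnfrsf1a (ENSMUSG00000030341; chromosome 6, 125349362 to 125362484, plus strand), the broadly expressed receptor for tumour necrosis factor, had 186, 99.4 and 115 CPM in the 3 young and 105, 125 and 90.4 CPM in the 3 old samples. Old sample 3 was below every young sample, and the other old samples lay within the young range. Tnfrsf1a had a log2 fold change of −0.32 (SE 0.35, 95% interval −1.11 to 0.46; edgeR adjusted p = 0.952). Without young sample 1, the highest, it was −0.01 and without young sample 2 it was −0.50.

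Ltbr (ENSMUSG00000030339; chromosome 6, 125306571 to 125313885, minus strand), the lymphotoxin beta receptor at the head of the noncanonical branch, lies 35476 bases from Tnfrsf1a. It had 36.9, 19.5 and 35.7 CPM in the 3 young and 46.5, 41.5 and 76.5 CPM in the 3 old samples. Every old sample was above every young one, also with library size as the only scaling. The means were 30.7 ± 9.73 and 54.9 ± 18.95 CPM (SD, n = 3 each), a log2 fold change of 0.84 (SE 0.53, 95% interval −0.36 to 2.04; edgeR adjusted p = 0.912). Without old sample 3 it was 0.52 and without old sample 2 it was 1.00.

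**Figure D4:**
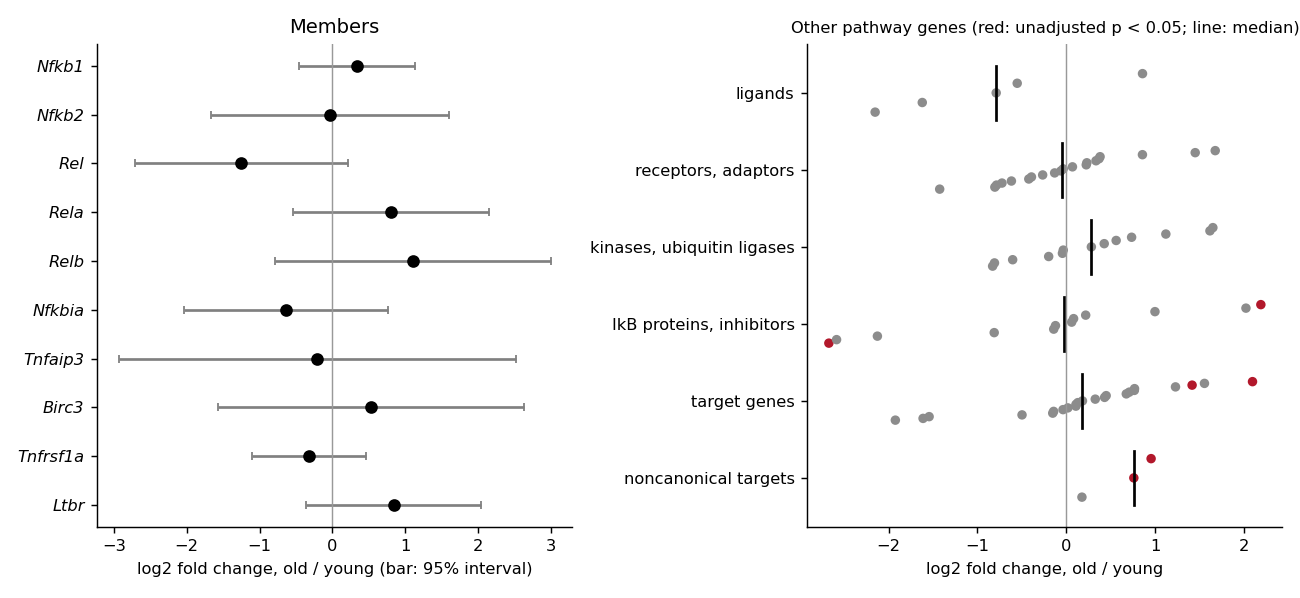
Left, log2 fold change of old against young for the 10 members (points) with 95% intervals from the edgeR fit; every interval includes 0. Right, log2 fold changes of the other pathway genes by list, 1 point per gene, red for an unadjusted p under 0.05, with a black line at each list's median; 6 of 76 points are red.

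Levels of all 10 members were ranked only per length, as TPM. This measure divides counts by the merged exon length and scales each sample to a fixed sum. In descending order the means over the 6 samples were 89.9 TPM for Tnfrsf1a, 41.5 for Rela, 39.0 for Nfkbia, 33.7 for Ltbr, 20.98 for Rel, 18.99 for Nfkb1, 18.8 for Birc3, 13.1 for Tnfaip3, 8.76 for Relb and 8.73 for Nfkb2. Every neighbouring pair in this order overlapped in range. Tnfrsf1a was above Rela in 5 of 6 samples, and the other neighbours were in this order in 2 to 4 of 6 samples. Tnfrsf1a stood at the 95.9th percentile of the tested genes, and Relb and Nfkb2 at the 49.2nd and 49.1st. The place of Nfkb1 depended on the gene model: its merged exons span 12061 bases but its longest transcript 4149 bases, and on the latter it moved from rank 6 to rank 2, at 50.3 TPM.

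The sort selected against CD45, but leukocyte transcripts were present and differed between the samples. Ptprc, which encodes CD45, had 0.993, 57.4 and 72.7 CPM in young samples 1, 2 and 3, against 30.98, 30.7 and 62.9 CPM in old samples 1, 2 and 3. Of 6838 named genes of at least 20 CPM, Ptprc was the gene whose pattern lay closest to Tnfaip3, with a root mean square difference of 0.40 log2 units over the 6 samples after centring, where the spread of Tnfaip3 itself was 2.26. This pair was chosen after its values were seen. Both were lowest in young sample 1 and highest in young sample 3. Birc3, Nfkb1, Rela and Relb were also lowest in young sample 1, at 4.22, 83.8, 18.7 and 6.76 CPM. Nfkb2, Rel, Nfkbia, Tnfrsf1a and Ltbr were lowest in other samples.

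Of the 19 macrophage markers, all tested, 18 had a negative log2 fold change of old against young, as Rel did, and 1 a positive one. The median of the 19 was −1.52, against −1.25 for Rel itself and 0.02 for all genes. None passed the edgeR test after adjustment, and 1, Mrc1, was at an unadjusted p under 0.05. The summed level was 896, 3704 and 5062 CPM in the 3 young and 912, 2491 and 1579 CPM in the 3 old samples, with Cd163, Tyrobp and Pf4 at 0 in a sample. Mrc1, a mannose receptor that lymphatic endothelium also expresses, was the marker with the positive value (0.59) and made up much of this sum in the samples where the sum was lowest, at 401 CPM in young sample 1 and 679 CPM in old sample 1. Without Mrc1, which was set aside after its values were seen, the sum was 495, 3252 and 4700 CPM in the 3 young and 233, 2077 and 839.5 CPM in the 3 old samples. The order of Rel over the young samples was that of this sum, and over the old samples Rel was highest in sample 3 and the sum in sample 2. The sum of 11 lymphocyte markers was 80.7 to 1068 CPM in the 3 young and 97.4 to 1276 CPM in the 3 old samples, with Cd3e, Cd79b, Ms4a1 and Mzb1 at 0 in a sample. The sum of 8 granulocyte and mast cell markers was 94.8 to 192 and 42.0 to 238 CPM, with S100a8, Mcpt4, Cpa3 and Cma1 at 0 in a sample. The part of leukocytes in the values of Rel, Tnfaip3 and Birc3 was not tested.

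**Figure D5:**
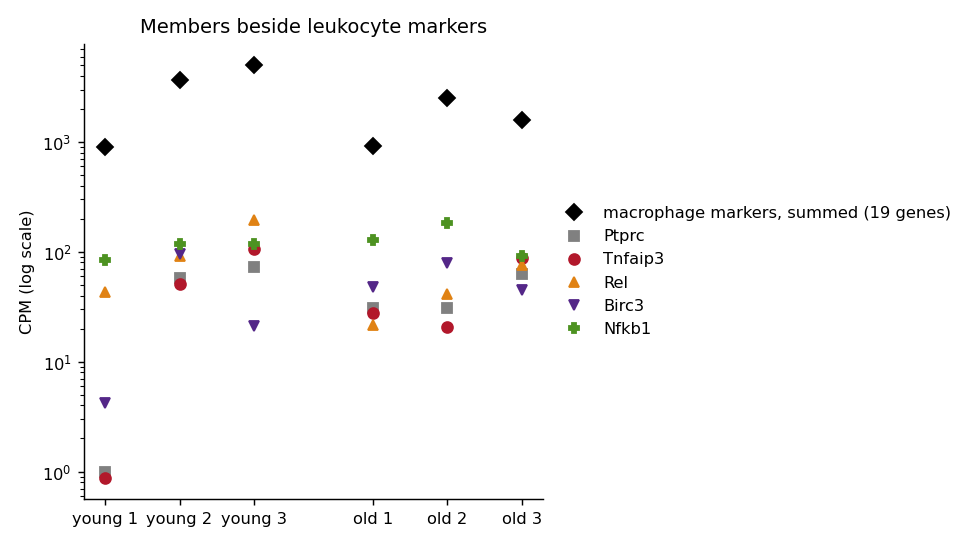
Level in CPM (vertical axis, log scale) of Tnfaip3, Rel, Birc3 and Nfkb1, of Ptprc and of the sum of 19 macrophage markers, Mrc1 included, in each of the 6 samples. Young sample 1 is the lowest for Ptprc (0.993 CPM), Tnfaip3 (0.869 CPM), Birc3 (4.22 CPM) and Nfkb1 (83.8 CPM). Nfkb1 stays between 83.8 and 183 CPM in all samples.

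The same search gave the nearest patterns for 4 other members. For Nfkb1 these were Dpy19l3 and Zscan26, at differences of 0.07 and 0.13 log2 units against a spread of 0.36. For Rel they were Ubash3b and Rpgrip1l, at 0.13 and 0.20 against 1.00, and both had their highest value in young sample 3 and their lowest in old sample 1, as Rel did. For Relb they were Acsl4 and Hacd4, at 0.20 and 0.21 against 0.90, and for Nfkbia Ring1 and Rnase4, at 0.15 and 0.18 against 0.57. With 6 samples and this many genes, close patterns are a description only.

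The 4 members with a kappa B match in their promoter windows, shown above, all had a negative log2 fold change, with a median of −0.42. Of the 4 with a window and no match, 3 were positive, with a median of 0.67. Not every sign was stable. By limma-voom Nfkb2 and Tnfaip3 were positive (0.11 and 0.99), and without young sample 1 Birc3 was negative (−0.01). Among the tested genes of the other pathway lists the medians were 0.15 for 18 genes with a match and 0.11 for 43 without, and among all tested genes 0.01 for 670 and 0.02 for 10238. None of these 8 members passed a test, and the contrast between them is a description of 8 genes.

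The other genes of the pathway, 90 in 6 lists, had 82 rows in the table and 76 tested genes. None passed the edgeR test after adjustment, where 0.00% of all genes did. DESeq2 passed 0 of the 76 after adjustment and limma-voom 1, the chemokine gene Ccl21a. At an unadjusted p under 0.05, 5 were higher in old cells, where 2.86% of all genes were, and 1 was lower, where 2.70% were. This count of 6 was 10 in DESeq2, 2 without young sample 2, 3 without young sample 3, and 11 without old sample 1 or old sample 2. The groups did not overlap for 5 genes higher in old cells and 4 lower, against 5.56% and 6.44% of all genes, and the median log2 fold change of the 76 was 0.09.

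Ligands were few and variable: of 12 listed, 8 had a row and 5 were tested, with 1 positive and 4 negative log2 fold changes and a median of −0.79. Tnf, the ligand of Tnfrsf1a, was at 0 in young sample 1 and old sample 3, reached 9.77 CPM in young sample 3, and did not pass the filter. Ltb, which encodes a chain of the ligand of Ltbr, had at most 1.42 CPM in any sample. The ligands with the smallest p were Tnfsf12, Il33 and Il1a. Tnfsf12, a relative of tumour necrosis factor and the highest ligand per length at 61.5 TPM, had a log2 fold change of −0.79 (SE 0.69). Il33, a nuclear cytokine of barrier cells, had −0.55 (SE 0.50), and Il1a, an interleukin, had −2.15 (SE 2.00). Each adjusted p by edgeR was at least 0.944.

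Receptors and adaptors had 20 tested genes, 9 positive and 11 negative, with a median of −0.05 and none at an unadjusted p under 0.05. Cd40, a receptor that feeds the noncanonical branch, had 19.1, 8.99 and 14.5 CPM in the 3 young and 52.2, 52.2 and 11.9 CPM in the 3 old samples (log2 fold change 1.45, SE 0.75, edgeR adjusted p = 0.891). Old samples 1 and 2 were above all young samples and old sample 3 was within them. Il1rap, the shared chain of interleukin 1 receptors, had a log2 fold change of 1.67 (SE 0.86). Irak1, a kinase below those receptors and the highest of the list at 31.9 TPM, had −0.80 (SE 0.46).

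Kinases and ubiquitin ligases had 13 tested genes, 7 positive and 6 negative, with a median of 0.28 and none at an unadjusted p under 0.05. Map3k14, the NF-kB-inducing kinase of the noncanonical branch, had 6.64, 13.2 and 15.8 CPM in the 3 young and 23.6, 70.8 and 14.7 CPM in the 3 old samples (log2 fold change 1.61, SE 0.80, edgeR adjusted p = 0.891). Old sample 3 lay within the young range. Tab2, an adaptor of the kinase that activates the IkB kinases and the highest of the list at 49.9 TPM, had a log2 fold change of −0.81 (SE 0.38), and Tbk1, a kinase related to the IkB kinases, had 1.12 (SE 0.69).

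IkB proteins and inhibitors had 12 tested genes, 6 positive and 6 negative, with a median of −0.03. The groups did not overlap for 1 gene higher in old cells and 3 lower, against 5.56% and 6.44% of all genes. Bcl3, a nuclear IkB protein that binds dimers of the Nfkb1 and Nfkb2 products, had 2.79, 12.2 and 7.65 CPM in the 3 young and 13.4, 42.9 and 47.1 CPM in the 3 old samples. All old samples were above all young ones, with a log2 fold change of 2.19 (SE 0.86) and edgeR adjusted p = 0.888. Tnip2, a partner of Tnfaip3, had 20.0, 59.9 and 7.52 CPM in the 3 young and 3.07, 7.19 and 3.47 CPM in the 3 old samples. All old samples were below all young ones, with −2.67 (SE 0.98) and edgeR adjusted p = 0.888. Otulin, which cuts linear ubiquitin chains, had a log2 fold change of −2.58 (SE 1.32) without overlap of the groups. Tax1bp1, an adaptor of Tnfaip3 and the highest of the list at 50.5 TPM, had 0.08 (SE 0.39).

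Of 23 tested target genes, 16 had a positive and 7 a negative log2 fold change, with a median of 0.18. Among all 15394 genes tested, 7848 were positive. At an unadjusted p under 0.05 by edgeR, 2 targets were higher in old cells and 0 lower, where 2.86% and 2.70% of all genes were. The groups did not overlap for 2 targets higher in old cells and 1 lower, against 5.56% and 6.44% of all genes. Selp, which encodes P-selectin, had 18.9, 15.3 and 17.6 CPM in the 3 young and 16.2, 95.9 and 109 CPM in the 3 old samples. Old sample 1 lay within the young range, and the other old samples were far above it (log2 fold change 2.09, SE 0.71, edgeR adjusted p = 0.855). Lcn2, an iron-sequestering protein, had 79.9, 33.5 and 25.3 CPM in the 3 young and 116, 119 and 134 CPM in the 3 old samples without overlap (1.41, SE 0.48, edgeR adjusted p = 0.855). Bcl2l1, a survival protein, had 1.23 (SE 0.56), and Plau, the urokinase gene and the highest target at 147 TPM, had 0.77 (SE 0.37). The endothelial adhesion molecules Icam1 and Vcam1, named here after their values were seen as standard readouts of the pathway, had 0.02 (SE 0.49) and 0.18 (SE 0.98).

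Of 5 listed targets of the noncanonical branch, 4 had a row and 3 were tested. These 3, chemokine genes that the branch is known to drive in lymphoid tissue, all had a positive log2 fold change. Cxcl12 had 238, 208 and 168 CPM in the 3 young and 253, 271 and 514 CPM in the 3 old samples, with 0.76 (SE 0.33, edgeR adjusted p = 0.888). Ccl21a, the abundant chemokine of lymphatic endothelium and the highest of the list at 8501 TPM, had 0.95 (SE 0.16, edgeR adjusted p = 0.30), and its estimate is uncertain because near-identical copies share its reads. Both had all old samples above all young ones, as 5.56% of all genes did. Ccl21a is also in the list of 9 lymphatic endothelial markers, whose sum was higher in every old sample than in any young one. The part of that difference in the Ccl21a value was not tested. Ccl19 had 0.17 (SE 0.92).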

How the data were processed

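RNA of sorted cells was linearly amplified before library preparation, per the labels' protocols. FastQC, Salmon and mm10 are listed, per the submitters' processing notes. The authors deposited estimated counts per Ensembl gene, already whole numbers; their annotation, rounding and strandedness were not given in the sources used here. Symbols for 22738 of 22964 genes, positions and exon lengths came from GENCODE M21 (GRCm38).

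Groups were taken from the labels. Age was tested in R 4.3.3 by edgeR 4.0.16 (genes kept by filterByExpr with minimum count 10 and total 15; TMM scaling; robust quasi-likelihood fit, two-sided; Benjamini-Hochberg over 15394 genes). Standard errors and 95% intervals derive from that test. Shares and ratios within samples used exact permutation tests in scipy 1.17.1. Alternatives included DESeq2 1.42.0, limma-voom (limma 3.58.1), other scalings and filters, a replicate block and leaving out each sample. Pattern searches used log2 CPM with a prior count of 2, computed here from the deposited counts.

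The members and gene lists were chosen with earlier results of these data known. Named pathway genes were the 3 with the smallest p and the 1 with the highest level per length in each list. Nearest patterns were named for Nfkb1, Rel, Relb and Nfkbia.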

Additional observations from a re-analysis of the deposited data

How the results depend on the processing

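Under 13 alternatives per gene, 0 of 130 combinations of member and alternative passed an adjusted p of 0.05, with a smallest adjusted p = 0.593 (Rel, DESeq2), and 7 of the 10 members kept their sign throughout. The log2 fold change of Nfkb2 changed sign to 0.11 by limma-voom and 0.075 with the replicate block, that of Tnfaip3 to 0.99 and 0.64. Without single samples these ran from −0.38 to 0.37 and from −1.12 to 0.81, and that of Birc3 from −0.013 to 2.19. The Nfkb1 share difference was 0.626 points and became −0.695 with the longest transcript; without single samples it ran from −5.81 to 5.89, and that of Nfkb2 from −6.39 to 0.658. Over all genes, the count past the adjusted threshold was 130 in DESeq2 and 3 in limma-voom, and 0 to 1 without single samples, the 1 without old sample 1. The unadjusted count of 856 became 1543 without a filter, 1374 in DESeq2 and 696 to 1396 without single samples. For the other pathway genes it was 10 in DESeq2 and 2 to 11 without single samples. The cause was not tested.

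The replicate block gave 712 genes at an unadjusted p under 0.05, and Rel was among them, as it was without young sample 1 or old sample 3; Birc3 passed it without young sample 2. Same-numbered samples correlated in their deviations from the group means at 0.08, 0.05 and −0.01. Differently numbered ones correlated at −0.09 to 0.06. With 3 samples per group these values cannot decide whether the numbers pair the samples. With library size only, the all-gene median shifted to −0.12 from 0.02, and 441 higher and 415 lower genes became 285 and 546. The fewest counts of a member were those of Tnfaip3 in young sample 1 (14). That sample had 15733100 estimated counts in all, more than old samples 1 and 2 (14803269 and 14285794).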

Other observations

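The 10 members did not share one pattern over the samples. Among their 45 pairs, the closest were Nfkb2 and Ltbr, with a root mean square difference of 0.46 log2 units after centring, and the farthest were Tnfaip3 and Tnfrsf1a, at 2.57. The biological coefficient of variation of the edgeR fit ran from 37.0% for Tnfrsf1a and 37.5% for Nfkb1 to 96.7% for Tnfaip3, against a median of 84.2% over all tested genes.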
